A study of Saccharomyces cerevisiae with 3 samples.

Results

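The 55 genes described here encode enzymes of budding yeast that build amino acids other than the sulfur-containing ones. They were taken by name from a list covering 11 pathways, and all 55 were found among the 5574 genes named on the array. Per its title, the series concerns Saccharomyces cerevisiae transferred abruptly from fermentable to nonfermentable carbon. It holds 3 samples, titled G0, Y5 and Y10, each measured on 1 two-colour array. Every array set Cy3-labelled RNA of the mRNP fraction, messenger RNA bound to proteins, against Cy5-labelled RNA of a fraction named Poly. Poly is taken to mean polysomes, mRNAs carrying several ribosomes. The labels annotate all 3 samples with stress and nutrient limitation. What the letters and numbers in the titles stand for is not stated, nor are strain, genotype, medium or the carbon sources themselves.

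A value is a log ratio of the 2 fractions of 1 sample, relative to the median of its array. The base of the logarithm was taken as 2. The direction was taken as likely polysome over mRNP, on the convention of red over green, so a positive value is read as an mRNA lying relatively more with polysomes. The sources used here do not state it, the titles name mRNP first, and in the opposite reading all signs given here would be reversed. Each ratio is relative to its array, so a change shared by all mRNAs cannot be seen, and a total mRNA level is not measured.

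With 1 array per group there was no replicate and no test, and no difference below can be set against a spread between cultures or hybridisations. Genes with 2 spots gave the error of a single spot as an SD of 0.453 on G0, 0.394 on Y5 and 0.434 on Y10. For a difference between arrays, Y5 minus G0 had an SD of 0.448, Y10 minus G0 one of 0.631 and Y10 minus Y5 one of 0.558. Repeat spots of a gene correlated with r = 0.576 on G0, 0.643 on Y5 and 0.309 on Y10. Their r was 0.543 once G0 was subtracted from Y5. With Y10 in the difference it was lower, at 0.268 (against G0) and 0.197 (against Y5). Y10 values of single genes, and differences built on them, therefore repeated poorly between spots. Of the 55 members, 52 had 1 spot on G0. A difference of at least 1 log2 unit was used as the rule of size. All 55 members had a value on G0 and on Y5, and 44 had one on Y10. The Y10 values rest on row numbers inferred from the data (Y5 and Y10 correlated with r = 0.463 across spots after renumbering and 0.0155 by deposited row number).

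Amino acid synthesis in yeast branches from a few intermediates of central metabolism. Arginine and proline come from glutamate, the aromatic amino acids from chorismate, and threonine from aspartate through homoserine. Isoleucine, valine and leucine share mitochondrial steps, lysine is made through aminoadipate, and serine comes from a glycolytic intermediate. Many of these genes are activated by Gcn4, a transcription factor whose own mRNA is translated poorly in well-fed cells and better when amino acids run short. Several of the enzymes are abundant proteins in growing cells.

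On G0 the biosynthetic mRNAs lay toward the polysome side. Their median was 1.11, against 0.01 for all 5548 genes, and 48 of 55 (87.3%) were above 0, beside 50.3% of all genes. At least 1 log2 unit above the array median were 32 members, or 58.2%, beside 9.26% of all genes. The range ran from −1.29 for LEU2 to 2.0 for HOM6, homoserine dehydrogenase. The 7 members below 0 were LEU2, TRP1, HIS3, SER2, ARO7, ARG2 and ILV5, and of these LEU2 and TRP1 were at least 1 unit below, where 4.56% of all genes lay.

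On Y5 the members lay lower, with quartiles of −0.09 and 0.89 beside 0.45 and 1.43 on G0. The median was 0.55 (all genes −0.04), with 38 of 55 above 0 (69.1%, beside 47.2% of all genes). Values ran from −1.28 for LEU2 to 2.29 for BAT1, the mitochondrial branched-chain aminotransferase. At least 1 unit above the array median were 13 members, or 23.6%, beside 6.58% of all genes. LEU2 was the 1 member at least 1 unit below, beside 6.63%. On Y10 the members were close to the rest of the array, with a median of 0.19 over 44 members. Above 0 were 29 of them (65.9%, beside 49.8% of all genes). ASN2, asparagine synthetase, at 1.57 and HIS4, of histidine synthesis, at 1.76 were the 2 members at least 1 unit above, a share of 4.55% beside 2.81% of all genes. LYS9 at −1.24 and LEU2 at −1.54 were the 2 at least 1 unit below, beside 5.76%.

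**Figure D1:**
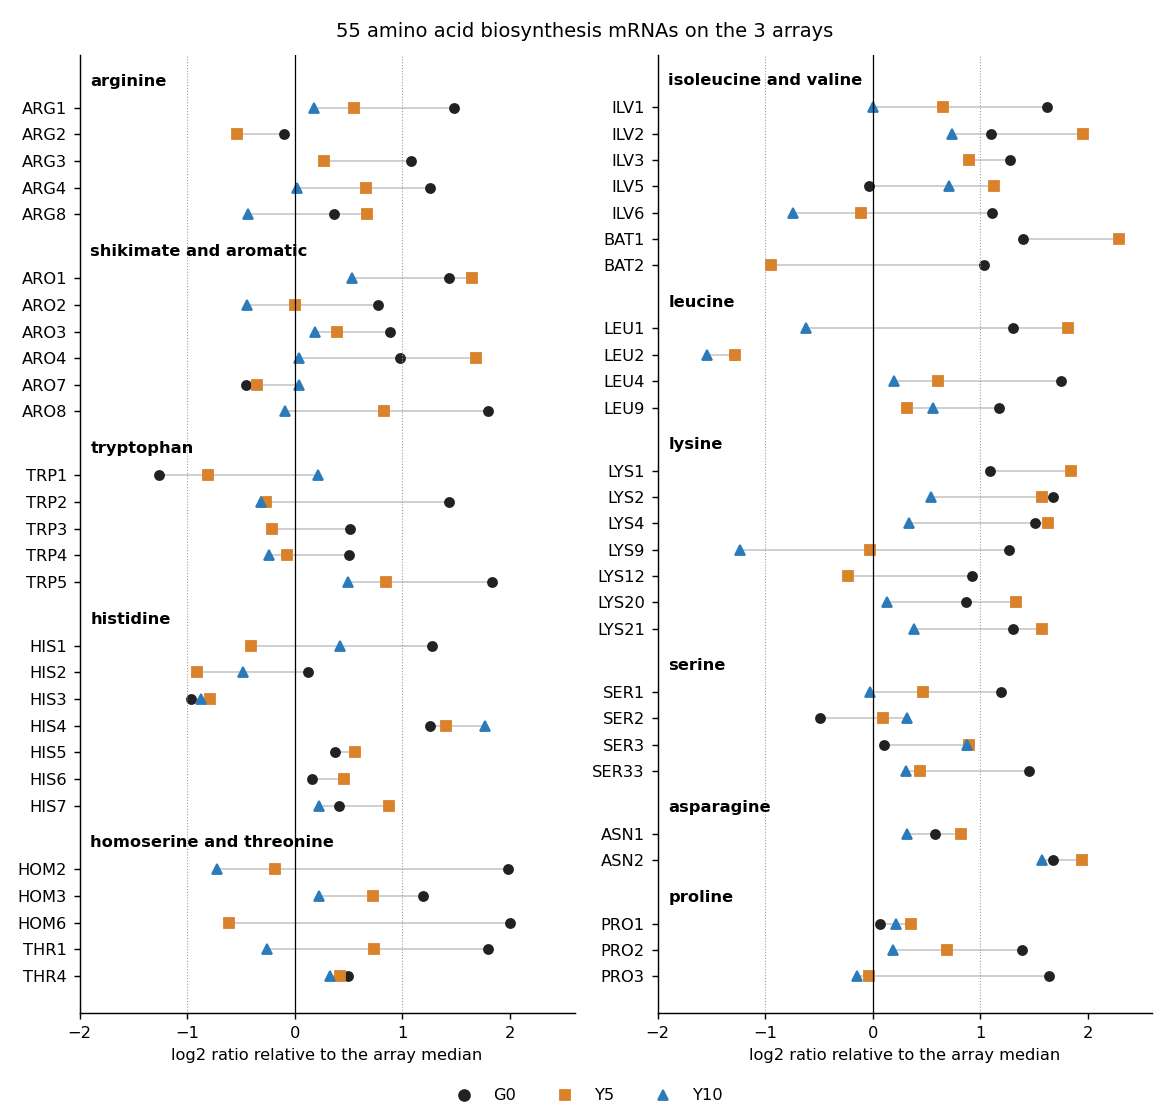
Log2 ratio relative to the array median (x axis) of each of the 55 mRNAs (y axis, grouped by pathway) on G0 (circles), Y5 (squares) and Y10 (triangles), with 1 array per symbol and dotted lines at 1 unit from 0. Most circles stand to the right of the triangles, 11 members have no triangle, and LEU2, whose circle is hidden by its square, stands at −1.29, −1.28 and −1.54.

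The median of Y5 minus G0 over the members was −0.43, against −0.01 for all genes. Below 0 were 31 of 55, beside 2795 of 5546 genes. On G0 the members had a median of 1.11, against 0.01, and genes of a like G0 level were not compared. Lower by at least 1 unit were 13 members, or 23.6%, beside 10.5% of all genes. They were TRP2, HIS1, HIS2, HOM2, HOM6, THR1, ILV6, BAT2, LEU4, LYS9, LYS12, SER33 and PRO3. After scaling the arrays to one spread, or after quantile normalization, 8 of these 13 remained, and HIS2, THR1, LEU4, LYS12 and SER33 did not. ILV5 was the 1 member higher by at least 1 unit, beside 4.02% of all genes.

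The median of Y10 minus G0 was −0.91, against −0.03 for all genes, with 36 of 44 members below 0, beside 2299 of 4427 genes. Lower by at least 1 unit were 19 members, or 43.2%, beside 12.1% of all genes, and 1 member, TRP1, was higher by at least 1 unit, beside 6.51%. After scaling to one spread or quantile normalization 14 of the 19 remained, without LYS2, LYS4, PRO2, SER33 and TRP5. By deposited row number, under which Y10 correlated with G0 at r = 0.0374 across spots, the same median was −0.95 over 50 members. A list that lies at 1.11 on G0 therefore gives a difference of this size against values unrelated to it, and the Y10 minus G0 median adds little to the G0 and Y10 levels themselves. The differences Y5 minus G0 and Y10 minus G0 share the G0 array, so a high or low G0 spot moves both.

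Between the later arrays, which leave G0 out, the median of Y10 minus Y5 was −0.43 (all genes 0.01). Below 0 lay 37 of 44 members, beside 2201 of 4435 genes. By deposited row number this median was −0.40, so it too is close to what unrelated Y10 values give. Lower by at least 1 unit were 11 members, or 25%, beside 5.3% of all genes. They were ARG8, ARO1, ARO4, THR1, ILV2, LEU1, LYS2, LYS4, LYS9, LYS20 and LYS21. The number was 7 after quantile normalization and 6 with each array sector centred on its own median, beside 202 and 146 of 4435 genes. TRP1 was again the 1 member at least 1 unit higher, beside 3.77%, and with sector centring none was.

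Among the 44 members on all 3 arrays, 21 had their highest value on G0, the middle one on Y5 and the lowest on Y10. This is 47.7%, beside 20.2% of the 4425 genes on all 3 arrays. These members had a G0 median of 1.19, against 0.01 for those genes. The shares in this paragraph were not set beside genes of a like G0 level. A further 16 were highest on Y5 (36.4%, beside 29.4%), and 3, HIS1, HIS2 and LEU9, were lowest on Y5 (6.82%, beside 30.1%). The reverse order, lowest on G0 and highest on Y10, was found for 4 members, ARO7, TRP1, HIS4 and SER2 (9.09%, beside 20.3%). At least 1 unit lower on both later arrays than on G0 were 8 members, TRP2, HOM2, THR1, ILV6, LEU4, LYS9, SER33 and PRO3 (18.2%, beside 6.60% of genes), and 0 were at least 1 unit higher on both. After scaling to one spread or quantile normalization 5 of the 8 remained, without THR1, LEU4 and SER33. With sector centring the number was 9. Above the array median on all 3 arrays were 24 members (54.5%, beside 23.3% of genes), and HIS3 and LEU2 were below it on all 3.

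**Figure D2:**
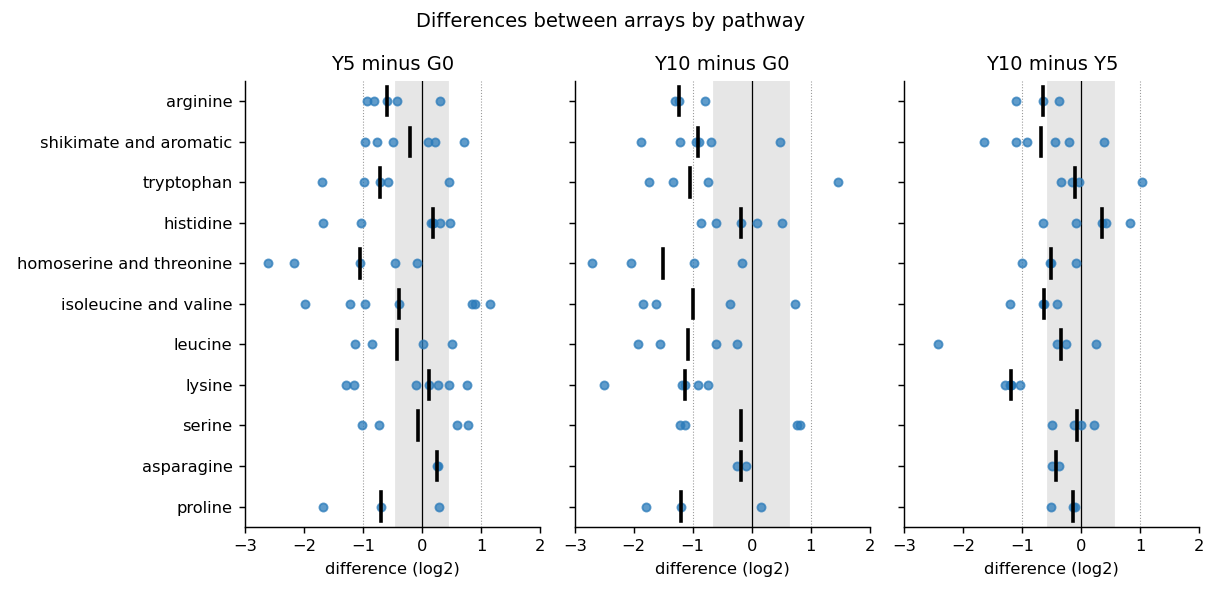
Differences between arrays in log2 units (x axis) for the members of each pathway (y axis, points), with the pathway median as a black bar, the SD of a single spot as a grey band and dotted lines at 1 unit. For Y10 minus Y5 all 5 measured lysine genes stand at or beyond −1.03 as centred here, and genes of a like Y5 level were not compared. The histidine genes spread from −0.66 to 0.83.

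The homoserine and threonine pathway, which turns aspartate into threonine, had the highest G0 median of the 11 pathways (1.79). There 5 of 5 genes were above 0, beside 50.3% of all genes. Its Y5 minus G0 median of −1.05 was the lowest, with 5 of 5 below 0, beside 2795 of 5546 genes. G0 is subtracted in that difference, so these are not separate results, and genes of a like G0 level were not compared. HOM6, homoserine dehydrogenase, stood at 2.0 on G0 and −0.61 on Y5, a difference of −2.61 that was the lowest among the members. HOM2, aspartate semialdehyde dehydrogenase, stood at 1.98, −0.18 and −0.72 on G0, Y5 and Y10. It thus passed from percentile 99.1 of all genes on G0 to percentile 39.6 on Y5 and 9.87 on Y10. THR1, homoserine kinase, followed the same order at 1.79, 0.74 and −0.26. HOM3, the aspartate kinase that opens the pathway, had 1.19, 0.73 and 0.22. THR4, threonine synthase at the end of the pathway, differed little between arrays, with 0.50, 0.42 and 0.33. The drop from G0 was thus largest for the middle enzymes, for HOM6 on Y5 alone as it had no Y10 value. For THR4 it was within the single-spot SD. With sector centring Y5 minus G0 of HOM2 was −1.54 in place of −2.17, and Y10 minus G0 of THR1 was −1.41 in place of −2.05.

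The lysine genes kept high values on Y5. Their median was 1.27 on G0 (7 of 7 above 0, beside 50.3% of all genes), 1.58 on Y5 and 0.34 on Y10 (5 genes). LYS20 and LYS21, the homocitrate synthases of the first step, stood at 0.87, 1.33, 0.13 and at 1.30, 1.58, 0.38 on G0, Y5 and Y10. LYS4, homoaconitase, had 1.51, 1.63 and 0.34. LYS2, aminoadipate reductase, had 1.67, 1.58 and 0.54. For these 4 genes G0 and Y5 differed by 0.46 at most, and Y10 was lower than Y5 by 1.03 to 1.29. Genes this high on Y5 would also be lower on Y10 if their Y10 values were unrelated. Genes of a like Y5 level were not compared.

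The remaining lysine genes parted on Y5. LYS1, the saccharopine dehydrogenase that releases lysine, stood at 1.09 on G0 and 1.84 on Y5, with no Y10 value. LYS9, the saccharopine dehydrogenase of the step before, had 1.27, −0.03 and −1.24, so it ended at percentile 3.42 of all genes on Y10. LYS12, homoisocitrate dehydrogenase, had 0.92 on G0 and −0.23 on Y5, with no Y10 value. With sector centring the Y10 minus G0 difference of LYS4 was −0.53 in place of −1.18, and after scaling to one spread that of LYS2 was −0.70 in place of −1.13. For Y10 minus Y5, LYS4 and LYS9 were at −0.77 and −0.72 with sector centring, and LYS2 at −0.81 after scaling. After quantile normalization LYS2 and LYS21 were at −0.74 and −0.96. The lysine median of Y10 minus Y5 was −1.04, −1.10 and −1.06 under these settings.

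Isoleucine and valine synthesis had a G0 median of 1.11. There 6 of 7 genes were at least 1 unit above the array median, beside 9.26% of all genes. ILV2 and ILV6 are the catalytic and the regulatory subunit of acetolactate synthase, the first shared enzyme. ILV2 stood at 1.10, 1.95 and 0.74 on G0, Y5 and Y10, and ILV6 at 1.11, −0.11 and −0.74. The subunits had nearly equal values on G0, and ILV6 lay near or below the median on both later arrays while ILV2 stayed above it.

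ILV5, the reductoisomerase of the next step, was the only gene of this pathway below 0 on G0, at −0.03, and stood at 1.12 on Y5 and 0.71 on Y10. Its Y5 minus G0 difference of 1.16 was the highest among the members as centred here. With sector centring it was 0.95 and ARO4, at 1.33, was highest, and after quantile normalization BAT1, at 1.07, was highest. ILV3, dihydroxyacid dehydratase, had 1.28 on G0 and 0.90 on Y5. ILV1, the threonine deaminase that leads into isoleucine, had 1.62, 0.65 and 0.00, each array lower than the one before it in the order G0, Y5, Y10.

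The leucine branch held the lowest member of every array. LEU2, isopropylmalate dehydrogenase, stood at −1.29, −1.28 and −1.54 on G0, Y5 and Y10. LEU1, isopropylmalate isomerase of the step before, had 1.30, 1.81 and −0.62, and its Y10 minus Y5 difference of −2.44 was the lowest among the members. LEU4, the main isopropylmalate synthase, had 1.75, 0.61 and 0.20. LEU1 was therefore among the mRNAs at high polysome share on Y5 (percentile 98.9) and low on Y10 (percentile 12.0), and LEU2 stayed under percentile 4 on each array.

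HIS3, imidazoleglycerol-phosphate dehydratase, and TRP1, phosphoribosylanthranilate isomerase, were low on G0 as well. HIS3 stood at −0.97, −0.79 and −0.87 on G0, Y5 and Y10, and TRP1 at −1.26, −0.81 and 0.21. Mutant alleles of LEU2, HIS3 and TRP1 serve as selection markers in many laboratory strains. The genotype of this strain is not given in the sources used here, and its part in these values was not tested.

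The other tryptophan genes were positive on G0 and lower on Y5. TRP2, the anthranilate synthase subunit that opens the branch, had 1.44, −0.27 and −0.31. TRP5, tryptophan synthase, which closes it, had 1.83, 0.85 and 0.50. TRP4, anthranilate phosphoribosyltransferase, had 0.51, −0.07 and −0.24, and TRP3, indole glycerol phosphate synthase, had 0.51 on G0 and −0.21 on Y5. The median of the 5 tryptophan genes was 0.51 on G0 and −0.21 on Y5, the lowest Y5 median of the 11 pathways. The Y10 minus G0 difference of TRP1, at 1.47, was 0.94 with sector centring.

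Upstream of these, the shikimate pathway leads to chorismate. ARO1, a protein carrying several shikimate activities in 1 chain, had 1.43, 1.65 and 0.54 as the mean of 2 spots. Its spots read 1.94 and 0.92 on G0, 2.01 and 1.29 on Y5, and 0.54 and 0.53 on Y10, so they were apart by 1.01 on G0 and Y10 minus G0 was −1.40 by one and −0.39 by the other. ARO2, chorismate synthase, had 0.77, 0.00 and −0.44. ARO8, the aromatic aminotransferase, had 1.79, 0.83 and −0.09, one of the longer drops at −1.88 for Y10 minus G0. Both enzymes were thus lower on each later array. ARO7, chorismate mutase, the step toward phenylalanine and tyrosine, was below 0 on G0 and Y5 at −0.45 and −0.35 and near 0 on Y10 at 0.03. Its 2 spots were close together, with −0.47 and −0.43 on G0 and −0.29 and −0.41 on Y5.

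Histidine synthesis had the lowest G0 median of the 11 pathways (0.37). Higher on Y5 than on G0 were 5 of its 7 genes, beside 49.6% of all genes (median difference 0.18). HIS1, ATP phosphoribosyltransferase of the first step, had 1.27, −0.41 and 0.42 on G0, Y5 and Y10, the lowest value on Y5. HIS4, which carries several histidine activities, was high on all 3 arrays at 1.25, 1.41 and 1.76, and was the highest member on Y10 (percentile 99.4). Its Y10 minus G0 difference of 0.51 became 1.24 after scaling to one spread and 1.15 with sector centring. HIS4 was also the highest gene of the pathway on Y5. HIS7, imidazole glycerol phosphate synthase, had 0.41, 0.88 and 0.22. HIS2, histidinol phosphatase, had 0.12, −0.91 and −0.48. HIS5, the aminotransferase, and HIS6, the isomerase, had 0.37 and 0.16 on G0 and 0.56 and 0.45 on Y5. Y5 minus G0 was −1.68 for HIS1 and −1.03 for HIS2, past the single-spot SD of 0.448. For the other 5 genes it ran from 0.15 for HIS4 to 0.47 for HIS7, near or within that SD. With sector centring it was −0.04 for HIS5 and 0.14 for HIS7, so a rise of these genes is not shown.

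Among the arginine genes, the late enzymes were high on G0. ARG1, argininosuccinate synthetase, had 1.48, 0.55 and 0.18, and ARG4, argininosuccinate lyase, had 1.26, 0.67 and 0.02. ARG3, ornithine carbamoyltransferase, had 1.08 on G0 and 0.27 on Y5. Of the early mitochondrial enzymes, ARG7, ornithine acetyltransferase and no member, stood at 1.51, 0.19 and 0.02 as the mean of 2 spots, above every arginine member on G0, whereas ARG2 and ARG8 lay closer to the array median there. ARG2, acetylglutamate synthase of the first step, had −0.10 and −0.54 on G0 and Y5, and ARG8, acetylornithine aminotransferase, had 0.36, 0.67 and −0.44. The 3 arginine genes with a Y10 value were all lower there than on G0, by −0.80 to −1.30.

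In proline synthesis, PRO1, the glutamate kinase of the first step, stayed near the median at 0.07, 0.36 and 0.22. PRO2, the reductase of the next step, had 1.39, 0.69 and 0.18. PRO3, which makes proline from pyrroline carboxylate, had 1.64, −0.04 and −0.14. The later the step, the lower was Y5 minus G0, at 0.29, −0.69 and −1.68 in that order.

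In serine synthesis, SER1, the phosphoserine aminotransferase, had 1.20, 0.47 and −0.02. SER2, the phosphatase of the last step, ran the other way at −0.49, 0.10 and 0.32. The serine median was 0.65, 0.46 and 0.32 on G0, Y5 and Y10. The Y10 minus G0 median of −0.18 turned to 0.04 after quantile normalization and 0.01 after scaling, and Y10 minus Y5 of −0.07 to 0.16 and 0.14.

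For 6 steps the members include a pair of genes for the same reaction. Where the coding sequences of a pair are much alike, a spot may have captured both mRNAs, and the probes were not compared here. SER3 and SER33 encode phosphoglycerate dehydrogenase. SER3 stood at 0.11, 0.89 and 0.88, and SER33 at 1.45, 0.44 and 0.31. Their order turned between G0 and Y5, with SER3 minus SER33 at −1.34 on G0, 0.45 on Y5 and 0.57 on Y10.

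BAT1 and BAT2 encode the mitochondrial and the cytosolic branched-chain aminotransferase. On G0 they stood at 1.40 and 1.04, and on Y5 at 2.29 and −0.94. The gap of 3.23 on Y5 was the widest of any pair on any array as centred here, and neither gene had a Y10 value. With sector centring Y5 minus G0 was −1.35 in place of −1.98 for BAT2 and 0.85 in place of 0.89 for BAT1. BAT1 was the member highest on Y5. ARO3 and ARO4, the synthases that open the shikimate pathway, were close on G0 (0.89 and 0.98) and on Y10 (0.19 and 0.04) and apart on Y5 (0.39 and 1.69). With sector centring Y5 minus G0 of ARO4 was 1.33 in place of 0.71.

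The other 3 pairs kept nearer to each other or held a steady gap. LYS20 and LYS21 differed by −0.43, −0.25 and −0.25 on G0, Y5 and Y10, within the single-spot SD. The gap of any pair carries the error of both genes, so it is less certain than either value. ASN1 stood at 0.58, 0.82 and 0.32 and ASN2 at 1.67, 1.95 and 1.57, a gap of −1.10, −1.12 and −1.25. ASN1 had 2 spots on G0 (0.58 and 0.57) and on Y5 (0.86 and 0.79). The asparagine genes were thus positive on every array, and their Y10 minus G0 median of −0.18 turned to 0.21 after quantile normalization and 0.29 after scaling. LEU9, the second isopropylmalate synthase, had 1.17, 0.32 and 0.56, against 1.75, 0.61 and 0.20 for LEU4, so that LEU4 minus LEU9 passed from 0.57 on G0 to −0.36 on Y10.

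**Figure D3:**
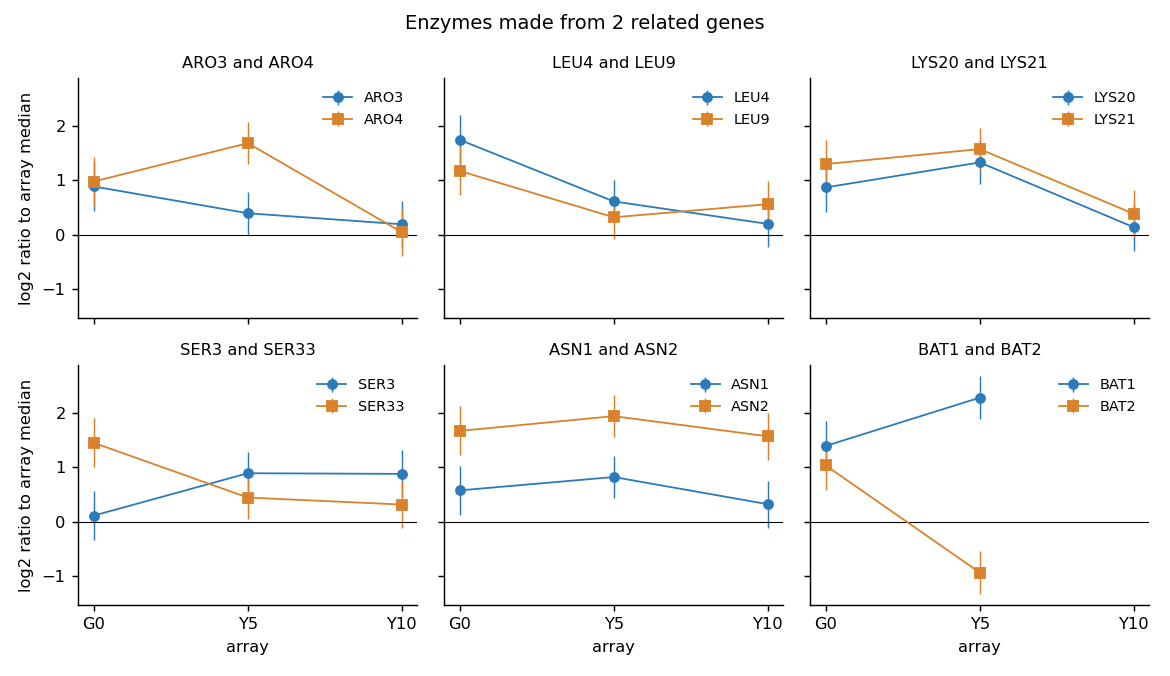
Log2 ratio relative to the array median (y axis) on the 3 arrays (x axis) for the 6 pairs of genes that encode the same reaction, with error bars of 1 SD of a single spot from genes with 2 spots. SER3 and SER33 cross between G0 and Y5, BAT1 and BAT2 part on Y5 (2.29 and −0.94) and have no Y10 value, and LYS20 and LYS21 run side by side.

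The members were also set against features that did not choose them. The 12 enzymes listed as mitochondrial had medians of 1.14, 0.66 and 0.27 on G0, Y5 and Y10 (8 genes on Y10), and the 43 others 1.09, 0.45 and 0.18. Members with a longer coding sequence had higher values, with r = 0.455 on G0 (55 genes), 0.567 on Y5 (55) and 0.424 on Y10 (44). The same held across all genes, with r = 0.302, 0.453 and 0.308, so the members shared a relation of the whole array, and each r compares genes of 1 array. The median coding length was 1287 bases for the members and 1262 for all genes. Across members, G0 and Y5 correlated with r = 0.446 (55 genes, all genes 0.413) and Y5 and Y10 with 0.607 (44 genes, all genes 0.565).

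The regulators of these pathways lay nearer the array median on G0 than the enzymes. Their list of 10 genes had a median of −0.17 on G0, 0.26 on Y5 and −0.06 on Y10 (9 genes). GCN4, the activator of many members, stood at −0.93, 1.32 and −0.23, so its value on Y5 was 2.26 higher than on G0. GCN2, the kinase through which uncharged tRNA raises GCN4 translation, had 0.67, 0.37 and −0.89. LEU3, activator of leucine genes, had −0.09, 0.23 and 0.42 as the mean of 2 spots, and LYS14, activator of lysine genes, had −0.65, −0.37 and −0.14. Both activators and all 3 ARG regulators (ARG80 at −0.89, −0.85, −0.08, ARG81 at −0.48, −0.18, 0.58 and ARG82 at −0.21, −0.44, 0.02) were below 0 on G0. BAS1, an activator of histidine and purine genes, had −0.13 on G0 and 0.70 on Y5. Its partner PHO2 had 0.43, 0.56 and −0.06, and GLN3, an activator of nitrogen genes, 0.57, 0.28 and 0.03.

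Of 23 other enzymes and carriers of the same pathways, 20 had a G0 value, with a median of 0.44. At least 1 unit above the array median were 5, or 25%, beside 9.26% of all genes. Y5 minus G0 had a median of −0.02. By at least 1 unit 6 of 20 were lower (30%, beside 10.5% of all genes) and 3 higher (15%, beside 4.02%). GLN1, glutamine synthetase, and ARO10, a phenylpyruvate decarboxylase, were highest at 2.20 and 1.23. AAT2, the cytosolic aspartate aminotransferase, and ORT1, the mitochondrial ornithine carrier, were lowest at −1.64 and −1.46. Y10 minus G0 was lower by at least 1 unit for 4 of 15 (26.7%, beside 12.1% of all genes). It was higher for GLN1 alone (6.67%, beside 6.51%). Amino acid breakdown enzymes, 14 genes, had a G0 median of 0.28. Their Y5 minus G0 median was −0.29, with PUT1, proline oxidase, at 1.01 and UGA2 at 0.28 the highest and GCV3, of the glycine cleavage system, at −1.25 and ASP1, asparaginase, at −1.06 the lowest.

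Beside these stood the lists nearest in function. Sulfur amino acid metabolism (21 genes) had medians of 1.58, 0.69 and 0.40 on G0, Y5 and Y10, and aminoacyl-tRNA synthetases (21 genes), which charge tRNAs with the products of these pathways, had 1.18, 1.13 and 0.34. On G0 the members' median of 1.11 was close to that of the synthetases and below that of the sulfur genes. On Y5 at least 1 unit above the array median were 11 of 21 synthetases, 6 of 21 sulfur genes and 13 of 55 members, beside 6.58% of all genes. Y5 minus G0 was below 0 in 18 of 21 sulfur genes, 12 of 21 synthetases and 31 of 55 members, beside 2795 of 5546 genes. Synthetases lay on both sides, from GUS1 and HTS1, both at −1.38, to CRS1 at 0.89 and GLN4 at 1.69. Among sulfur genes the lowest were MET22 at −2.09 and MET10 at −1.63, and the highest CYS4 at 0.55 and CYS3 at 0.53. These counts and values were not tested against each other.

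**Figure D4:**
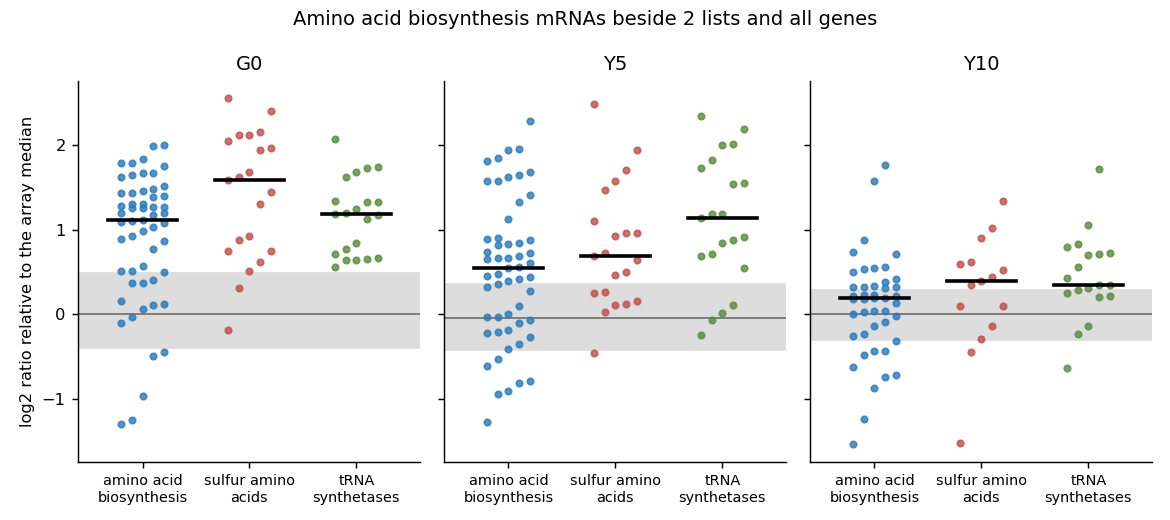
Log2 ratio relative to the array median (y axis) for the biosynthetic genes, the sulfur amino acid genes and the aminoacyl-tRNA synthetases (x axis) on each array, with 1 point per gene, list medians as black bars, and the median and quartiles of all genes as a grey line and band. The biosynthetic median moves from 1.11 on G0 to 0.55 on Y5 and 0.19 on Y10, where it lies inside the quartiles of all genes.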

How the data were processed

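RNA of 2 fractions was compared on 1 two-colour array for each of the samples G0, Y5 and Y10. The deposited table holds 1 log ratio per spot, taken here as log2; its scanner, background correction, filter, base, centring and direction are not stated in the labels. The deposited columns had medians of 0.0735 (G0), 0.067 (Y5) and 0.071 (Y10), with values for 8700, 8734 and 7822 of 8832 spots. Channel intensities were not used here, so depth and signal over background are unknown; precision is limited by having 3 arrays.

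Of the spots, 6623 carried 1 symbol in the platform annotation, 0 several and 2209 none. All 5574 genes matched RefSeq assembly R64, whose gene lengths are used as coding length (96.3% are multiples of 3). Rows of Y10 were placed by 32 sectors of 252 spots on 32 sectors of 276, keeping the first 192 of each (6008 spots). Arrays were centred on their medians over all spots and spots averaged per gene (Python 3.11.15, pandas 2.3.3, numpy 2.4.6). The steps were tested on simulated spots with known differences and a smaller spot error than that found here. The simulated Y10 was written in the assumed numbering, so it cannot check the placement of the Y10 rows. Members, lists and the rule of size were chosen with earlier results of these data known. All members are named, all regulators, and the 2 highest and 2 lowest of the other lists for Y5 minus G0.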

Additional observations from a re-analysis of the deposited data

How the results depend on the processing

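The member medians on the 3 arrays and for the 3 differences, the pathway medians and the members' own differences were recomputed under other settings. Moves were read against the single-spot SD between repeat spots, a wide measure for a median over several genes. For Y5 minus G0 this SD (0.448) was larger than the size of the member median itself (−0.43). Of 54 alternative values of the member medians, 50 moved by less, as did all 121 of the pathway medians and 562 of 572 of single members. These counts include medians that changed sign, as for serine and asparagine in Y10 minus G0. Leaving out the outer 0.5% of spots left every member's difference as it was, and its values are counted too. A small move by this measure therefore does not show that a median is stable. Over only the 3 members with 2 or more spots, the median was 0.58 on G0, Y5 minus G0 turned to 0.22, and Y10 minus Y5 was −1.12 (1 gene). These members are ARO1, ARO7 and ASN1, whose Y5 minus G0 was 0.22, 0.10 and 0.25 in the main values too. Taken as natural logarithms, the G0 median was 1.60. Over all settings the median ranged from −0.63 to 0.22 for Y5 minus G0, −1.31 to −0.68 for Y10 minus G0 and −1.12 to −0.34 for Y10 minus Y5.

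Counts of members past 1 unit moved more, and the cause was not tested. Scaled to one spread, 2 of 55 were higher and 8 lower for Y5 minus G0, beside 176 and 492 of 5546 genes. For Y10 minus G0 3 of 44 were higher, beside 283 of 4427 genes. After quantile normalization these were 2, 8 and 2, beside 231, 481 and 377 genes. For Y10 minus Y5 7 of 44 were then lower, beside 202 of 4435 genes. With sector centring 0 were higher and 6 lower for Y10 minus Y5, beside 127 and 146 of 4435 genes. As natural logarithms, 6 were higher and 23 lower for Y5 minus G0, beside 584 and 976 of 5546 genes. For Y10 minus G0 4 were higher, beside 621 of 4427, and for Y10 minus Y5 2, beside 409 of 4435. At 1.5 log2 units the counts were 0 higher and 6 lower for Y5 minus G0, 0 and 10 for Y10 minus G0, and 0 and 2 for Y10 minus Y5. All genes were not counted at 1.5 units, so these counts have no share beside them.

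With the last 60 spots of each Y10 sector added, 54 members had a Y10 value and the Y10 minus G0 median was −0.92. HOM6 then stood at 0.52 on Y10, BAT1 at 0.24, BAT2 at −0.12, and Y10 minus Y5 at 0.24 for LYS12 and −1.60 for LYS1. No paired analysis was possible because each group has 1 array and no result comes from a test.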
